A study of Mus musculus with 46 samples.

Results

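The nuclear-encoded subunits of the mitochondrial respiratory chain were followed in mouse liver from 2 h to 16 d after carbon tetrachloride (CCl4). They were taken by symbol as all genes named Ndufa, Ndufb, Ndufc, Ndufs or Ndufv with a number, Sdha to Sdhd, Uqcr genes, and Cox4 to Cox8 genes that had a probe set naming only that gene. This gave 64 genes of 18193 on the array. By complex these were 34 of complex I, 4 of complex II, 8 of complex III and 18 of complex IV, where Ndufa4 was counted because it is now known as a complex IV subunit. Its paralog Ndufa4l2 was left in complex I by its symbol. For 59 of the 64 genes (33, 4, 8 and 14) the chosen probe set was bright enough to be tested. The other 5, Cox6b2, Cox7a1, Cox7b2, Cox7c and Ndufb4, had mean log2 levels from 3.48 to 5.31, below the median of all values on the array (5.56).

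The respiratory chain lies in the inner mitochondrial membrane and passes electrons from NADH and succinate to oxygen. Complex I accepts electrons from NADH and complex II, which is also an enzyme of the tricarboxylic acid cycle, from succinate. Ubiquinone carries them to complex III and cytochrome c on to complex IV, and the proton gradient made on the way drives ATP synthase. Hepatocytes are rich in mitochondria and pay for urea, glucose and bile acid synthesis with this ATP. Apart from a few core proteins coded in mitochondrial DNA, the subunits are made in the cytosol from nuclear genes and imported.

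Livers came from male C57BL/6N mice aged 8 to 10 weeks, on a standard diet throughout. Treated mice had received 1 intraperitoneal dose of 1.6 g/kg CCl4, a solvent that becomes a toxic radical in hepatocytes, dissolved in olive oil. The 46 arrays comprised 5 from untreated mice, 5 from each time between 2 h and 8 d (2 h and 8 h, then 1, 2, 4, 6 and 8 d), and 6 from 16 d. The control arrays carry the treatment label of the others without a time, but their titles and the design text give them as untreated, so injection and oil are part of each comparison with control. Arrays are numbered without a statement that each is a different animal, so the p-values rest on array-to-array spread, part of which may be technical. The time of day of sampling was not given in the sources used here. Whole liver was measured, so fewer cells of a type and less RNA per cell cannot be told apart.

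Arrays of 1 group correlated across genes with r from 0.947 to 0.993 (genes are no independent replicates). The 12 measured hepatocyte markers, such as albumin, had a mean log2 level of 13.27 to 13.40 on the control arrays. The Gapdh 3 prime minus 5 prime difference, a sign of RNA integrity, averaged 0.347 ± 0.0646 (SD, n = 5) in controls and 0.136 to 0.288 in the later groups. Its part in the falls described here was not tested beyond adding it to the fit, which left 32, 48 and 47 members called lower at 2 h, 8 h and 1 d. The number of arrays limits the precision, and a member's log2 fold change between 5 and 5 arrays had a standard error of 0.0793 at the median.

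Promoter windows from RefSeq (GRCm38.p6, 250 bases before to 50 bases after the start) were found for 51 of the 64 members, and for 27025 genes in all. These windows were read because many subunit genes moved together, and because GABP, NRF1, YY1 and estrogen-related receptors are known regulators of respiratory genes. The letters CCGGAAG, the core bound by ETS factors such as GABP, stood on either strand in 11 members (21.6%), against 9.93% of all genes. The NRF1 core GCATGCGC was found in 6 members (11.8%) against 3.05%, the YY1 letters AAGATGGCG in 4 (7.84%) against 1.64%, and the estrogen-related receptor letters CAAGGTCA in 2 (3.92%) against 1.76%. At least 1 of these stood in 19 members (37.3%) and in 15.1% of all genes. A match is a description of the letters and not a binding site. All genes here are the 27025 with a window and not the 13239 tested in liver. The members were not set against genes of like expression or base content. The 250 bases before the start are shown for the member of each complex with the largest F statistic among those with a match there, and for Cox7a2l, which moved against the others and had none; these were chosen after their values were seen. Capitals mark the ETS core or its reverse complement. The regions are chr8:83566508-83566757 (Ndufb7, plus strand), chr9:50603850-50604099 (Sdhd, minus strand), chr10:80406822-80407071 (Uqcr11, minus strand), chr7:30626115-30626364 (Cox6b1, minus strand), chr17:83514334-83514583 (Cox7a2l, minus strand).
Ndufb7: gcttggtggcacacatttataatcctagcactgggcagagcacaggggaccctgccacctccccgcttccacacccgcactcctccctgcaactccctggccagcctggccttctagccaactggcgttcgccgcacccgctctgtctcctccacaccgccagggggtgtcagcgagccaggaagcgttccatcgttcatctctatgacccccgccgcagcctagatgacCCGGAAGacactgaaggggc
Sdhd: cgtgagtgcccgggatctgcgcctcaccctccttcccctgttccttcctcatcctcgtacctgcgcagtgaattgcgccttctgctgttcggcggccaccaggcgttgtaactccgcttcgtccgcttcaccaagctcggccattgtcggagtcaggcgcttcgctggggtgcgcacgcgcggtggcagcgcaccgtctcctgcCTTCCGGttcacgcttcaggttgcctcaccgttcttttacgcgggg
Uqcr11: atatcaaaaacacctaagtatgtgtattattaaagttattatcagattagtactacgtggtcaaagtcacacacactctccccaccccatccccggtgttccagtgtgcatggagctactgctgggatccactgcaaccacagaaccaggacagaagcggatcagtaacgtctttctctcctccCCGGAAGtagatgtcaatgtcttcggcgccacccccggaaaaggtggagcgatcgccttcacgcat
Cox6b1: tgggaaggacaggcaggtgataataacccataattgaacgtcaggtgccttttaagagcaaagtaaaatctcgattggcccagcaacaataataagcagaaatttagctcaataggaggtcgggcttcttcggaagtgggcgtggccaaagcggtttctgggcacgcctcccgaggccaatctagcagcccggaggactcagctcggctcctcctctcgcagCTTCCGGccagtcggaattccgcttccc
Cox7a2l: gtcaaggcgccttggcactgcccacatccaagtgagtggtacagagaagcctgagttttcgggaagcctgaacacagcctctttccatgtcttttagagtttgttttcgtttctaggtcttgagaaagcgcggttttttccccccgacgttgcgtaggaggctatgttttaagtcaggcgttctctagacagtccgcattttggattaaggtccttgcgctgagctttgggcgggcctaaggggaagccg

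The ETS core began 20 bases before the start in Ndufb7, 46 in Sdhd, 66 in Uqcr11 and 28 in Cox6b1. It lay on the reverse strand in Sdhd and Cox6b1. In Uqcr11 an NRF1 core also began 4 bases before the start and ran past it. Only its first 4 bases lie in the stretch shown, without capitals.

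The subunit genes fell early and together. With the values as deposited, their transcripts were lower than in control livers for most members at 2 h, 8 h and 1 d. With cyclic loess between arrays 5 members were called lower at 2 h. The medians of complexes I, II and III recovered partly at 2 d, while that of complex IV was -0.19 at 8 h, 1 d and 2 d. Over the 10 complex IV members other than Cox4i2, Cox6a2, Cox8b and Cox8c it was -0.32, -0.33 and -0.19 at these times. That division was made after the values were seen. From 4 d on the medians of the complexes were nearer to control than at 8 h and 1 d. At 8 h 49 of 59 members were called lower (limma, Benjamini-Hochberg adjusted p under 0.05) and 1 higher. Of all 13239 genes tested, 24.2% were called lower and 17.7% higher at that time. The falls were small, with a median log2 fold change over members of complexes I, II, III and IV of -0.41, -0.50, -0.34 and -0.19 at 8 h, where the median over all genes was -0.04. With cyclic loess they were -0.29, -0.36, -0.19 and -0.07. At 1 d 49 members were lower and 2 higher, against 25.1% and 25% of all genes, and the medians were -0.41, -0.67, -0.35 and -0.19. That of complex IV at 1 d was -0.31 after further quantile normalization. Over the whole course 56 of 59 members differed from control at some time by limma's F-test, as did 83.4% of all genes, so that this count does not set them apart.

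**Figure D1:**
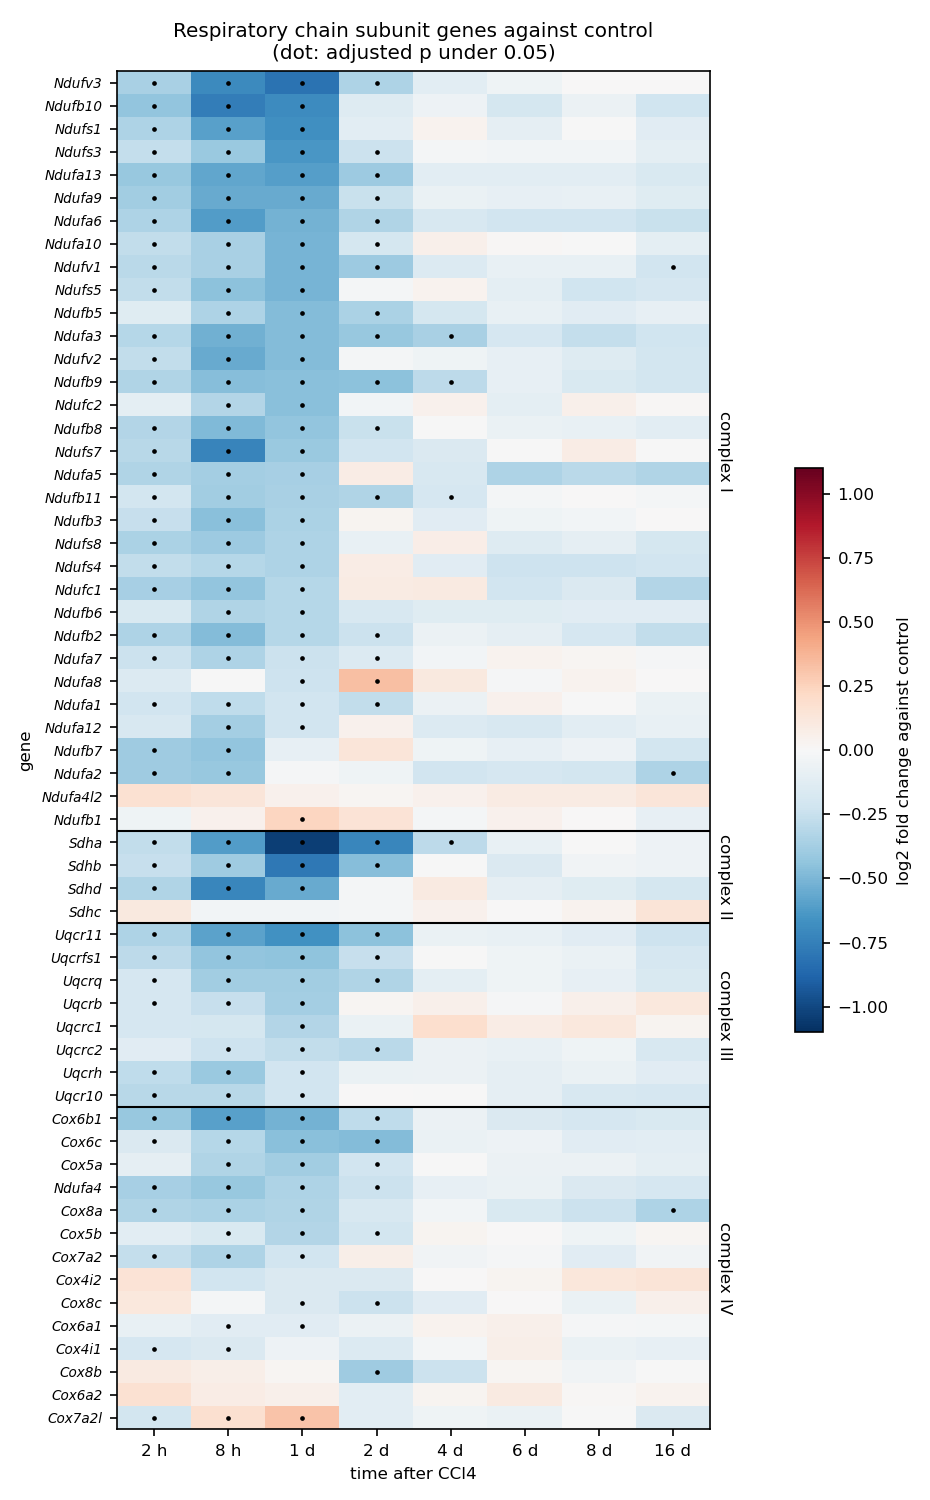
Log2 fold change against control of each of the 59 tested members (rows, by complex and ordered by the value at 1 d) at the 8 times (columns), in blue where lower and red where higher; a dot marks an adjusted p under 0.05. Blue with dots fills most rows at 8 h and 1 d, the rows of Cox7a2l and Ndufb1 are red at 1 d, and few dots remain from 4 d on.

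At 2 h 42 members were lower and 0 higher, against 19.9% and 6.41% of all genes. At an unadjusted p under 0.05 they were 44 and 0, against 26.6% and 11.1% of all genes. The call at 2 h depended on how the arrays were scaled. With cyclic loess between arrays 5 members were called lower at 2 h in place of 42, and the medians of complexes I, II, III and IV went from -0.30, -0.26, -0.23 and -0.13 to -0.10, -0.06, -0.04 and 0.06. Of all genes called at 2 h, 75.7% were lower as deposited, 62.2% after a further quantile normalization and 52.4% with cyclic loess. At 8 h and 1 d 39 to 51 members were called lower under each alternative setting tried.

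**Figure D2:**
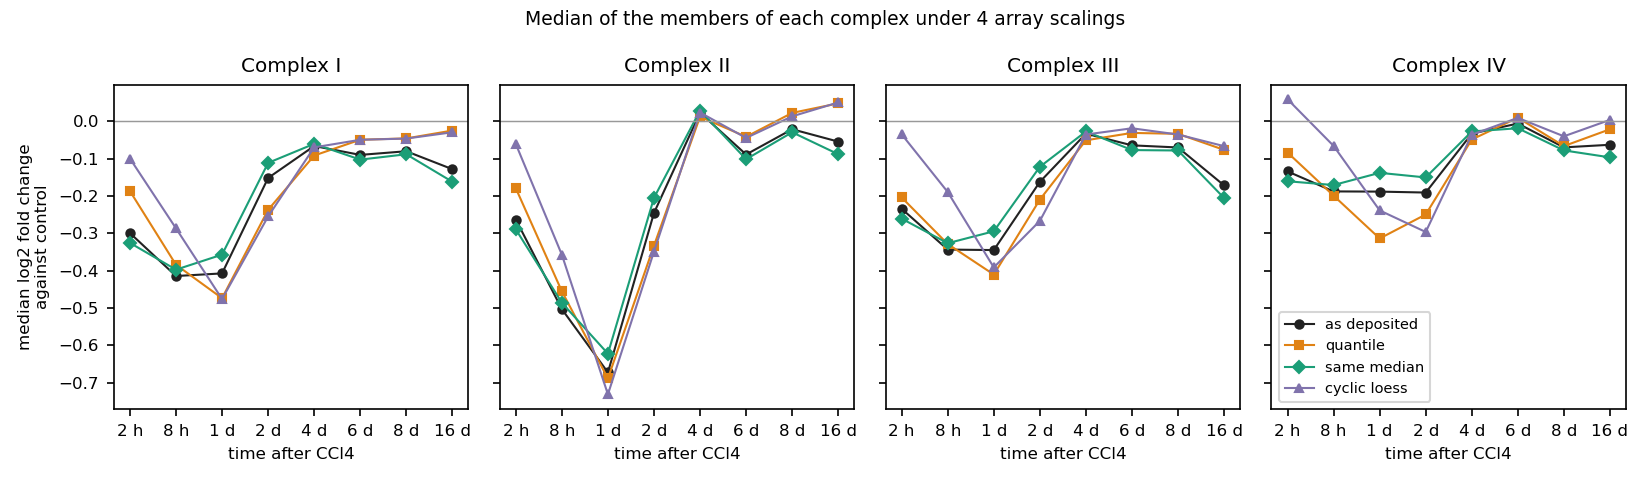
Median log2 fold change against control of the members of each complex (panels) at the 8 times, for the deposited values and 3 other array scalings. The lines lie apart at 2 h and 8 h, where cyclic loess is the highest, and all lie below 0 at 1 d.

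Of the 59 members, 38 were lower at each of 2 h, 8 h and 1 d (7.28% of all genes), and 22 were lower at 2 d as well (3.32%). Both counts are for the values as deposited and rest on the calls at 2 h, which depended on the scaling. Among the 54 members with a lower call, 28 had their lowest mean at 8 h, 20 at 1 d, 4 at 2 d and 2 at 2 h. On all 5 arrays 44 members lay below every control array at 8 h and 39 at 1 d, against 19% and 15% of all genes. A fall of at least 1.5-fold was reached by 9 members at 8 h, 8 at 1 d and 1 at 2 d, against 9.22%, 7.42% and 3.29% of all genes. At 1 d 3.57% of all genes and 1 member, Sdha, fell at least 2-fold. Without 1 d replicate 1 the log2 fold change of Sdha was -0.94, under 2-fold, and its second bright probe set gave -0.74.

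Between neighbouring times, where the control arrays enter only the estimate of spread, 20 members fell and 1 rose from 2 h to 8 h (15.4% and 20.4% of all genes). This count was 8 without 2 h replicate 5, 10 without 8 h replicate 3, 11 without 8 h replicate 5 and 13 without 2 h replicate 2. It was 7 with arrays shifted to the same median, 11 with only both groups in the fit, 31 with quantile normalization and 32 with cyclic loess. From 8 h to 1 d 6 members fell and 4 rose (10.9% and 20.8% of all genes); with cyclic loess 29 fell. The count of 6 was 2 without 8 h replicate 2, and 3 without 8 h replicate 1 or 1 d replicate 1, 3 or 4. The 6 were Sdha, Sdhb, Ndufs3, Ndufv1, Cox5b and Cox6c, and the 4 were Ndufa2, Ndufb7, Ndufs7 and Uqcrh. From 1 d to 2 d 28 rose and 2 fell (17.4% and 15% of all genes), and from 2 d to 4 d 17 rose and 1 fell (13.4% and 17.9%). With only both groups in the fit 12 and 10 rose in these steps, and from 2 d to 4 d 30 rose with quantile normalization and 33 with cyclic loess. In the latter step 28 rose without 2 d replicate 1, and 3, 5 and 6 fell without 4 d replicate 1, 2 d replicate 5 and 2 d replicate 4. From 4 d to 6 d 1 rose and 2 fell (3.51% and 7.3%). The limma fit called 0 members from 6 d to 8 d (0.00755% of all genes higher and 0% lower) and from 8 d to 16 d (0% in both directions). At an unadjusted p under 0.05, 1 was lower and 0 higher in the first of these steps, and 3 were lower and 1 higher in the second. Of all genes these were 4.18% and 2.99%, then 5.71% and 4.89%.

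**Figure D3:**
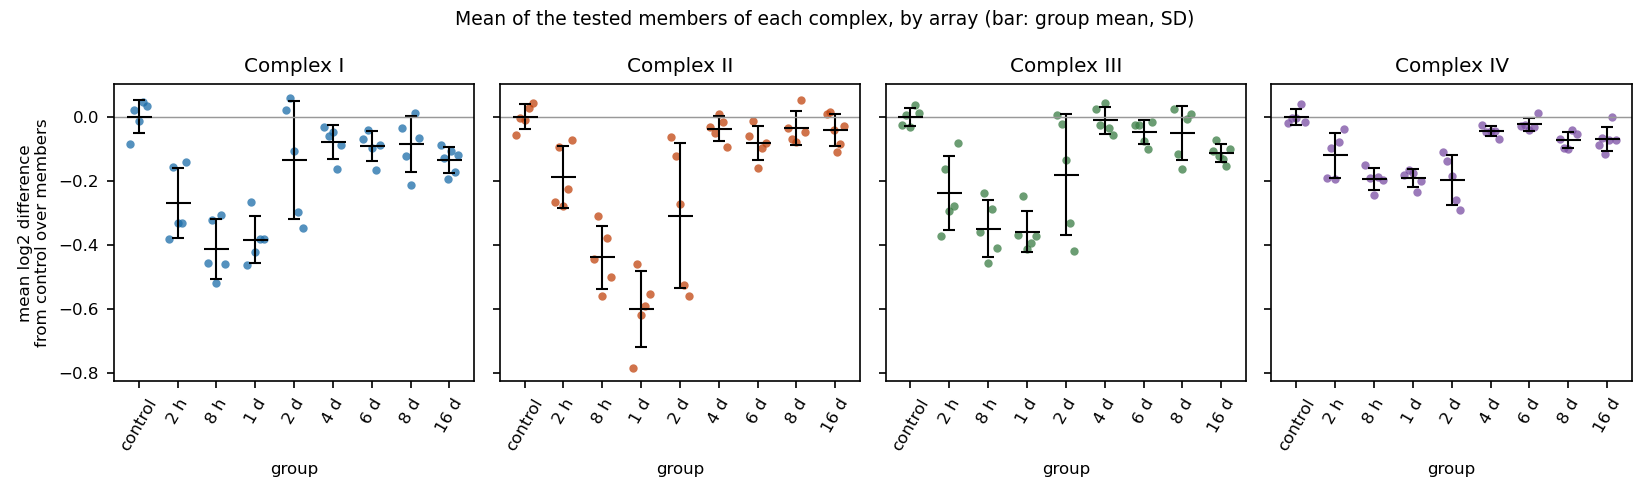
Mean over the tested members of each complex (panels) of the log2 difference from the control mean, for each array (points), with the group mean and SD (bars). Every array at 2 h, 8 h and 1 d lies below every control array in each panel, complex II is lowest at 1 d, and the arrays at 2 d are spread widely.

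Complex I, the NADH dehydrogenase, had 26, 30 and 29 of its 33 tested members lower at 2 h, 8 h and 1 d, and 15 at 2 d. Among its nuclear-encoded core subunits are those that carry the flavin and iron-sulfur clusters. The 6 core subunits measured here, Ndufs1, Ndufs3, Ndufs7, Ndufs8, Ndufv1 and Ndufv2, were each lower at 2 h, 8 h and 1 d. These calls are for the values as deposited. At 2 h that for Ndufs3 was lost without 2 h replicate 1, 3 or 4 or control replicate 5. The 2 h call for Ndufs7 was lost without 2 h replicate 1 or 4. For Ndufv2 it was lost without 2 h replicate 1, 3 or 4 or control replicate 1, 2, 3 or 5. Ndufv3, an accessory subunit of the NADH-binding module, fell most in this complex at 1 d. Its log2 levels were 11.53, 11.71, 11.68, 11.59 and 11.64 on the control arrays. At 8 h they were 10.94, 11.04, 10.72, 11.08 and 10.84, and at 1 d 10.73, 11.04, 10.65, 10.78 and 10.86. All arrays at both times lay below all controls. The log2 fold change was -0.70 ± 0.0773 (SE, limma adjusted p = 6.22e-10) at 8 h and -0.82 ± 0.0773 (adjusted p = 1.24e-11) at 1 d, and the level was back at the control mean at 8 d and 16 d.

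Ndufb10, a subunit of the membrane arm, reached -0.76 ± 0.115 at 8 h (limma adjusted p = 5.13e-07) and -0.69 at 1 d. Ndufs7, which holds the last iron-sulfur cluster before ubiquinone, reached -0.73 ± 0.0962 at 8 h and had risen to -0.41 at 1 d. Ndufs1, the largest subunit, and Ndufs3 were lowest at 1 d, at -0.68 and -0.64. Ndufa13, also known as GRIM-19, was 11.74, 11.76, 11.74, 11.80 and 11.80 in controls and 11.28, 11.29, 11.08, 11.11 and 11.04 at 1 d. Its groups did not overlap at 2 h, 8 h, 1 d or 2 d, and its log2 fold changes were -0.41, -0.57, -0.61 and -0.40.

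Ndufa2 and Ndufb7 were lower at 2 h and 8 h and back near control at 1 d. Ndufb7 was 10.45, 10.36, 10.26, 10.40 and 10.56 in controls, 9.93, 10.11, 9.89, 10.03 and 9.89 at 8 h, and 10.18, 10.49, 10.29, 10.26 and 10.35 at 1 d. Its arrays at 8 h lay below all controls and those at 1 d overlapped them. From 8 h to 1 d Ndufb7 rose by 0.34 and Ndufa2 by 0.40 on the log2 scale. At 1 d Ndufa2 stood at -0.01 ± 0.0797 against control (limma adjusted p = 0.906), and at 2 d Ndufb7 was at 0.14.

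Of the complex I genes, 2 were called higher at some time. Ndufa8, a twin-CX9C protein of the intermembrane space side, was lower at 1 d (-0.23, limma adjusted p = 0.0429) and higher at 2 d (0.33 ± 0.0959, adjusted p = 0.00596). Its levels at 2 d were 10.51, 10.56, 10.33, 10.12 and 10.39, against 9.87, 10.00, 10.10, 10.31 and 10.00 in controls, so the groups overlapped. The lower call at 1 d was lost without 1 d replicate 1 (-0.16, limma adjusted p = 0.191) or 3 or without control replicate 3 or 4. Ndufb1, read near the dim end at a control mean of about 6.15, was higher at 1 d (0.24, limma adjusted p = 0.0195) with overlapping arrays. That call was lost without 1 d replicate 1 (0.15, adjusted p = 0.129) or control replicate 5 (0.20, adjusted p = 0.0664). Ndufa4l2, a paralog of Ndufa4 known as induced by hypoxia, was called at no time, with 0.17 at 2 h and 0.04 at 1 d. Ndufa4 itself fell, by 0.42 on the log2 scale at 8 h and 0.34 at 1 d, on all arrays.

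**Figure D4:**
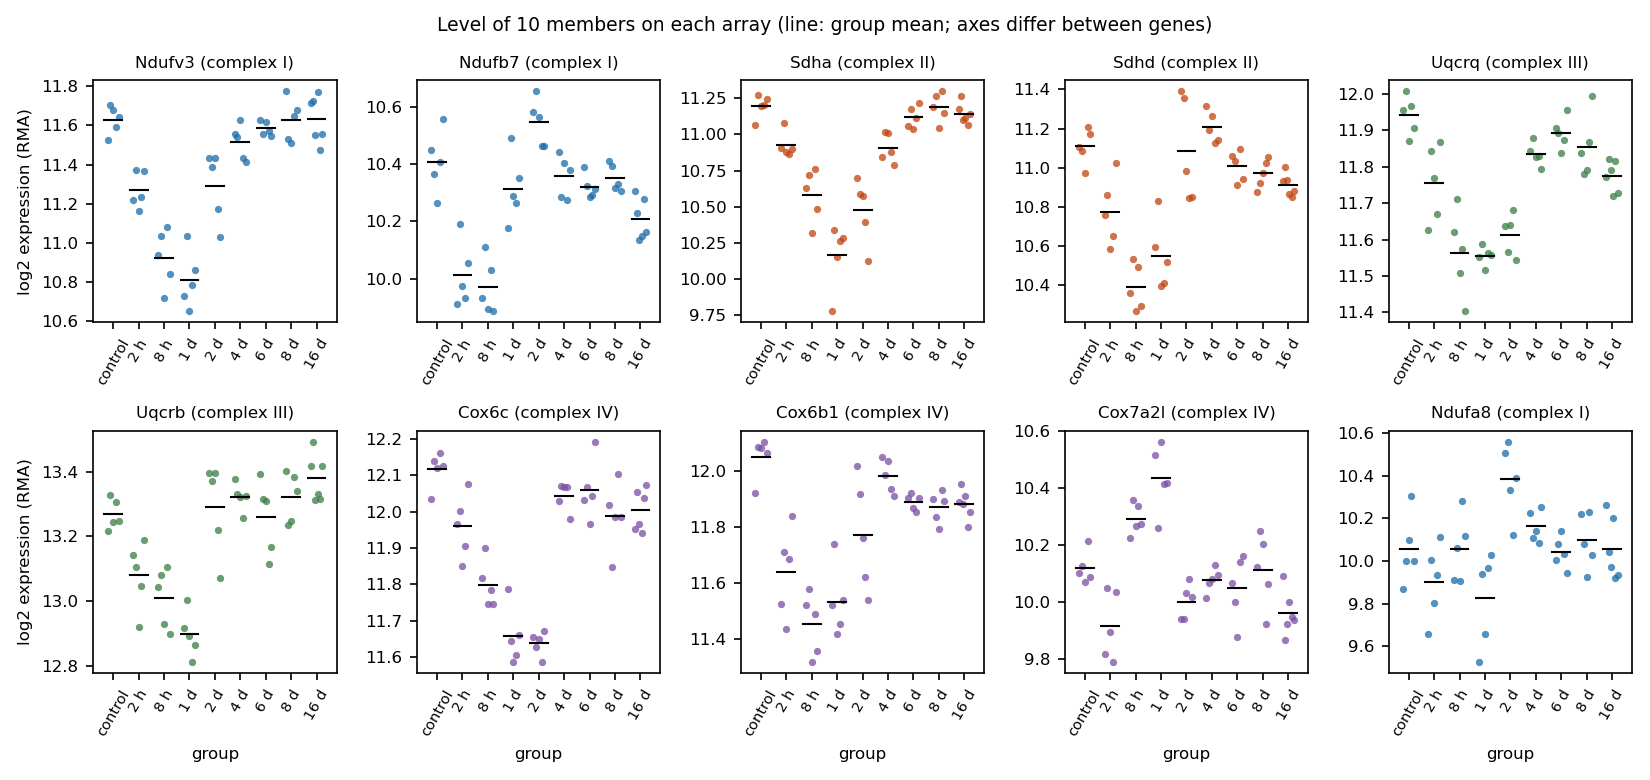
Log2 expression of 10 members on each array (points) by group, with the group mean (line); the vertical axes differ between genes. Ndufv3, Sdha, Sdhd, Uqcrq, Uqcrb, Cox6c and Cox6b1 are lowest between 8 h and 2 d, Ndufb7 is back among the controls at 1 d, Cox7a2l is highest at 1 d and Ndufa8 at 2 d.

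Complex II, succinate dehydrogenase, has 4 subunits, all coded in the nucleus. Sdha, the flavoprotein that oxidises succinate, had log2 levels of 11.06, 11.27, 11.20, 11.20 and 11.25 in controls. They were 10.63, 10.72, 10.32, 10.76 and 10.48 at 8 h, 9.78, 10.34, 10.16, 10.26 and 10.29 at 1 d and 10.70, 10.59, 10.58, 10.40 and 10.12 at 2 d. Every array at these times lay below every control. The log2 fold changes were -0.61 at 8 h, -1.03 ± 0.089 at 1 d (limma adjusted p = 1.15e-12), -0.72 at 2 d and -0.29 at 4 d (adjusted p = 0.0357, lost without any 1 of 7 arrays), and 6 d to 16 d lay between -0.08 and -0.01. A second bright probe set of Sdha gave -0.61, -0.74 and -0.49 at 8 h, 1 d and 2 d.

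Sdhb, the iron-sulfur subunit, followed Sdha, with levels of 11.09, 11.13, 11.22, 11.23 and 11.26 in controls and 10.13, 10.62, 10.45, 10.37 and 10.43 at 1 d. The groups were separate, and the log2 fold change was -0.79 ± 0.0986 (limma adjusted p = 1.01e-08). Both fell further from 8 h to 1 d, by 0.42 for Sdha and 0.40 for Sdhb on the log2 scale. Sdhd, a membrane anchor that binds ubiquinone, was lowest earlier, at 10.36, 10.54, 10.27, 10.50 and 10.30 at 8 h against 11.10, 11.09, 10.97, 11.21 and 11.17 in controls. That was -0.72 ± 0.0887 at 8 h without overlap, and -0.02 at 2 d. Sdhc, the other anchor, was called at no time with the probe set of the highest mean (-0.03 at 8 h and at 1 d). Its other probe set gave -0.27, -0.54 and -0.38 at 2 h, 8 h and 1 d, so the result for Sdhc rests on the choice of probe set.

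Complex III, the cytochrome bc1 complex, had 6, 7 and 8 of its 8 members lower at 2 h, 8 h and 1 d, and 4 at 2 d. Uqcrq, a small subunit next to cytochrome b, was 11.96, 12.01, 11.87, 11.97 and 11.91 in controls and 11.55, 11.59, 11.52, 11.56 and 11.56 at 1 d. No array overlapped, and its log2 fold change was -0.39 ± 0.0518 (limma adjusted p = 4.46e-08). Its other probe sets, with mean levels of 5.41 to 6.08, gave 0.02 to 0.05 at 8 h. Uqcrb was 13.22, 13.33, 13.24, 13.31 and 13.25 in controls and 12.92, 13.00, 12.89, 12.81 and 12.86 at 1 d, again without overlap, and reached -0.37.

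Uqcr11 fell most in complex III, with -0.59 at 8 h and -0.66 ± 0.0935 at 1 d (limma adjusted p = 1.29e-07). Uqcrfs1, the Rieske iron-sulfur protein, was at -0.44 and -0.45. The core proteins Uqcrc1 and Uqcrc2 were at -0.32 and -0.27 at 1 d. A second bright probe set of Uqcrc2 gave -0.40 at 8 h and -0.52 at 1 d, a larger fall than that of the chosen one. Uqcrh was lowest at 8 h (-0.41) and rose by 0.20 on the log2 scale from 8 h to 1 d. Uqcr10 was at -0.21 at 1 d with the chosen probe set, while its other probe sets gave 0.26 and 0.11.

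Complex IV, cytochrome c oxidase, had 7, 9 and 9 of its 14 tested members lower at 2 h, 8 h and 1 d, and 7 at 2 d. Whether it differed from the other complexes was not tested, since members of a complex are not replicates. Of the 14, Cox4i2, Cox6a2, Cox8b and Cox8c are isoforms known from lung, muscle or testis, a division made after the values were seen. None of these 4 was called at 2 h or 8 h, 1 was lower at 1 d and 2 at 2 d. Cox4i2, Cox6a2 and Cox8b had mean log2 levels of 5.53, 6.15 and 5.98, near the median of all values (5.56). Cox8c was brighter, at 9.05. Whether a fall could be seen at such dim levels was not tested. Of the other 10 complex IV members, 7 were lower at 2 h, 9 at 8 h, 8 at 1 d and 5 at 2 d. Their medians were -0.19, -0.32, -0.33 and -0.19.

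Cox6b1, which faces cytochrome c, was 11.92, 12.09, 12.08, 12.11 and 12.07 in controls and 11.52, 11.58, 11.32, 11.49 and 11.36 at 8 h. The groups did not overlap, at a log2 fold change of -0.60 ± 0.0723 (limma adjusted p = 5.17e-09). Cox6c was 12.04, 12.14, 12.12, 12.16 and 12.13 in controls, 11.79, 11.64, 11.59, 11.61 and 11.66 at 1 d, and 11.66, 11.63, 11.65, 11.59 and 11.67 at 2 d. It stayed below all controls at both times, at -0.46 and -0.48 ± 0.0513 (adjusted p = 5.63e-10 at 2 d), and was back at -0.07 at 4 d. Cox4i1, the common form of the regulatory subunit, was lower by small amounts at 2 h (-0.19) and 8 h (-0.16), and its arrays overlapped the controls. With cyclic loess both turned to 0.02, and without any 1 of 7 arrays the call at 8 h was lost. Cox6a1 was at -0.13 and -0.12 at 8 h and 1 d, each call was lost without any 1 of 3 arrays, and the value at 8 h turned to 0.08 with cyclic loess. Cox8a stood at -0.33 to -0.35 from 2 h to 1 d.

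Cox7a2l, also known as SCAF1, takes part in joining complexes III and IV into supercomplexes. It moved the other way at 8 h and 1 d. Its log2 levels were 10.10, 10.13, 10.07, 10.22 and 10.09 in controls, 9.82, 10.05, 9.90, 9.79 and 10.03 at 2 h, 10.23, 10.36, 10.27, 10.34 and 10.28 at 8 h, and 10.52, 10.26, 10.56, 10.42 and 10.42 at 1 d. All arrays lay below the controls at 2 h and above them at 8 h and 1 d. The log2 fold changes were -0.20 (limma adjusted p = 0.0143), 0.17 (adjusted p = 0.0248) and 0.31 ± 0.0629 (adjusted p = 5.84e-05). The step from 1 d to 2 d was -0.43. Its 2 other probe sets gave 0.15 and 0.08 at 8 h and 0.23 and 0.21 at 1 d. The call at 8 h was lost without 8 h replicate 2 or 4, or without control replicate 3 or 5, and that at 2 h without 2 h replicate 4. The call at 8 h was also lost with the Gapdh difference in the fit (0.11, limma adjusted p = 0.264) and with the mean of all its probe sets (0.13, adjusted p = 0.0511).

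At 2 d 28 members were lower and 1, Ndufa8, higher, against 18.9% and 21.1% of all genes. Further quantile normalization moved the share of lower calls among all genes at 2 d from 47.3% to 58.4%. The 5 arrays differed more than at any other time. The mean difference from control over all members was -0.018, -0.011, -0.141, -0.309 and -0.359 for replicates 1 to 5, so replicates 1 and 2 lay near the controls and 4 and 5 near the level at 1 d. For complex I the same means were 0.021, 0.059, -0.108, -0.298 and -0.348, and its median at 2 d was -0.15, -0.06 without replicate 5 and -0.26 with cyclic loess, which gave -0.27 for complex III and -0.30 for complex IV. In complex IV they were -0.110, -0.137, -0.184, -0.259 and -0.292, all below the controls. The median of complex IV as deposited was -0.19 at both 1 d and 2 d. It was -0.31 and -0.25 after further quantile normalization, and -0.24 and -0.30 with cyclic loess. As deposited, the median without Cox4i2, Cox6a2, Cox8b and Cox8c was -0.33 at 1 d and -0.19 at 2 d.

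Markers of other cells also differed between the arrays at 2 d. The mean level of 10 Kupffer cell and macrophage markers was 8.56, 8.56, 8.25, 9.07 and 9.49, and that of 7 markers of infiltrating monocytes 6.91, 7.08, 6.68, 8.20 and 8.19, in the same order. Both were highest on replicates 4 and 5. Hepatocyte markers were 12.89, 13.00, 12.93, 12.95 and 13.02, and the 9 markers of dividing cells, all called higher at 2 d, 8.97, 7.45, 9.09, 8.66 and 8.48. The mean of the dividing cell markers was 5.215 to 5.696 on the control arrays, where the median of all values was 5.56. Some of them may thus have been tested only because of their levels after CCl4. The part of other cells in the member levels was not tested.

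At earlier times the markers moved as follows. At 2 h 1 of 12 hepatocyte markers was lower and 1 higher, and their mean level was 13.35 to 13.47 against 13.27 to 13.40 in controls. At 8 h 4 hepatocyte markers were lower and at 1 d 8, with mean levels of 13.02 to 13.28 and 12.38 to 13.28; with cyclic loess 5 were higher and 0 lower at 2 h, and 3 higher and 0 lower at 8 h. Of 10 Kupffer cell and macrophage markers 3 were lower and 0 higher at 2 h, 7 lower and 1 higher at 8 h, and 1 lower and 3 higher at 1 d. Of 9 endothelial markers 6, 7 and 4 were lower at 2 h, 8 h and 1 d and 1 higher each time, with medians of -0.29, -0.35 and -0.19. With cyclic loess 0 of the Kupffer cell and 2 of the endothelial markers were lower at 2 h. Of 10 stellate cell markers 3 were lower at 8 h, and 1 was lower and 2 higher at 1 d. The part of these cells in the member levels was not tested either. The array with the lowest hepatocyte mean, 1 d replicate 1, was also lowest for Sdha and Sdhb; without it 43 members were lower at 1 d.

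By 4 d 4 members were still lower and 0 higher, against 2.21% and 4.74% of all genes. They were Ndufa3 (-0.36), Ndufb9 and Sdha (-0.29 each) and Ndufb11 (-0.18). The count fell to 2 without 4 d replicate 1, 4 or 5 or without control replicate 2, 3, 4 or 5. At 6 d (0% of all genes lower and 0.0227% higher) and 8 d (0.0755% and 0.068%) limma called 0 members, and at an unadjusted p under 0.05 8 and 13 were lower and 0 higher. At that unadjusted threshold 4.26% of all genes were lower and 2.64% higher at 6 d, and 6% and 3.96% at 8 d.

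At 16 d 3 members were lower and 0 higher, against 1.1% and 0.415% of all genes. Ndufa2 was 10.02, 9.94, 9.94, 10.02, 10.02 and 10.01 on the 6 arrays against 10.31, 10.35, 10.19, 10.37 and 10.42 in controls, and Cox8a and Ndufv1 were the others. For all 3 every array lay below the controls, at -0.34 (limma adjusted p = 0.019), -0.34 (adjusted p = 0.019) and -0.21 (adjusted p = 0.0494). The call for Ndufv1 was lost without 16 d replicate 2, 3, 4, 5 or 6 or without control replicate 2, 3, 4 or 5. That for Cox8a was lost without 16 d replicate 5 or control replicate 4 or 5, and that for Ndufa2 without control replicate 5. Over all members, 12 lay below every control array on all 6 arrays, against 2.91% of all genes, and the mean over members was -0.110 ± 0.026 (SD, n = 6). At an unadjusted p under 0.05 (limma) 24 members were lower and 1 higher at 16 d. The share of all genes at this unadjusted threshold was not counted for 16 d. The count of 3 was 0 after further quantile normalization, with cyclic loess or without control replicate 5, 1 without control replicate 4 or 16 d replicate 5, 8 with arrays shifted to the same median and 17 with array weights. The share of lower calls among all genes was 72.5% at 16 d as deposited, 46.1%, 52.7% and 85.3% with quantile normalization, cyclic loess and the same median, and at 8 d 52.6% against 41.2% with quantile normalization.

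Other mitochondrial genes are described here by their counts, without a test between lists. For the ATP synthase, which uses the proton gradient, of 17 subunit genes 12, 16 and 14 were lower and 0 higher (limma) at 2 h, 8 h and 1 d, with medians of -0.23, -0.34 and -0.33. Atp5o was at -0.60 and Atp5a1, of the catalytic head, at -0.54 at 8 h. At 2 h the counts of these lists depended on the scaling as well: with cyclic loess 0 ATP synthase subunits, 1 enzyme of the tricarboxylic acid cycle, 16 mitochondrial ribosomal proteins and 9 assembly factors were lower. Of 17 tricarboxylic acid cycle enzymes 10, 9 and 12 were lower and 1 higher at each of these times. Idh3b, of isocitrate dehydrogenase, was at -0.68 at 1 d, and Mdh2, the malate dehydrogenase of mitochondria, at 0.71.

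Mitochondrial ribosomal proteins, which translate the subunits coded in mitochondrial DNA, had more lower than higher calls at 2 h and 8 h and more higher calls at 2 d. Of 76 genes 43 were lower and 0 higher at 2 h, 31 and 11 at 8 h, 12 and 30 at 1 d, and 0 and 38 at 2 d. With further quantile normalization 23 were lower and 23 higher at 1 d, and 6 and 19 at 2 d. Of 29 protein import genes 12 were lower and 2 higher at 2 h, but 3 lower and 18 higher at 1 d, and with cyclic loess 3 were lower and 4 higher at 2 h. Tomm20, a receptor of the outer membrane, rose most, by 1.52 on the log2 scale at 1 d, and Chchd4, which folds intermembrane space proteins, rose by 0.77. Of 43 assembly factors of the respiratory chain 24 were lower and 3 higher at 8 h, 13 and 8 at 1 d, and 5 and 9 at 2 d. The counts at 2 d were 7 and 6 with further quantile normalization and 7 and 7 with cyclic loess. Sdhaf4, which helps join Sdha to the rest of complex II, was at -1.32 and Cox20, which helps mature a core subunit of complex IV, at -1.19 at 8 h.

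**Figure D5:**
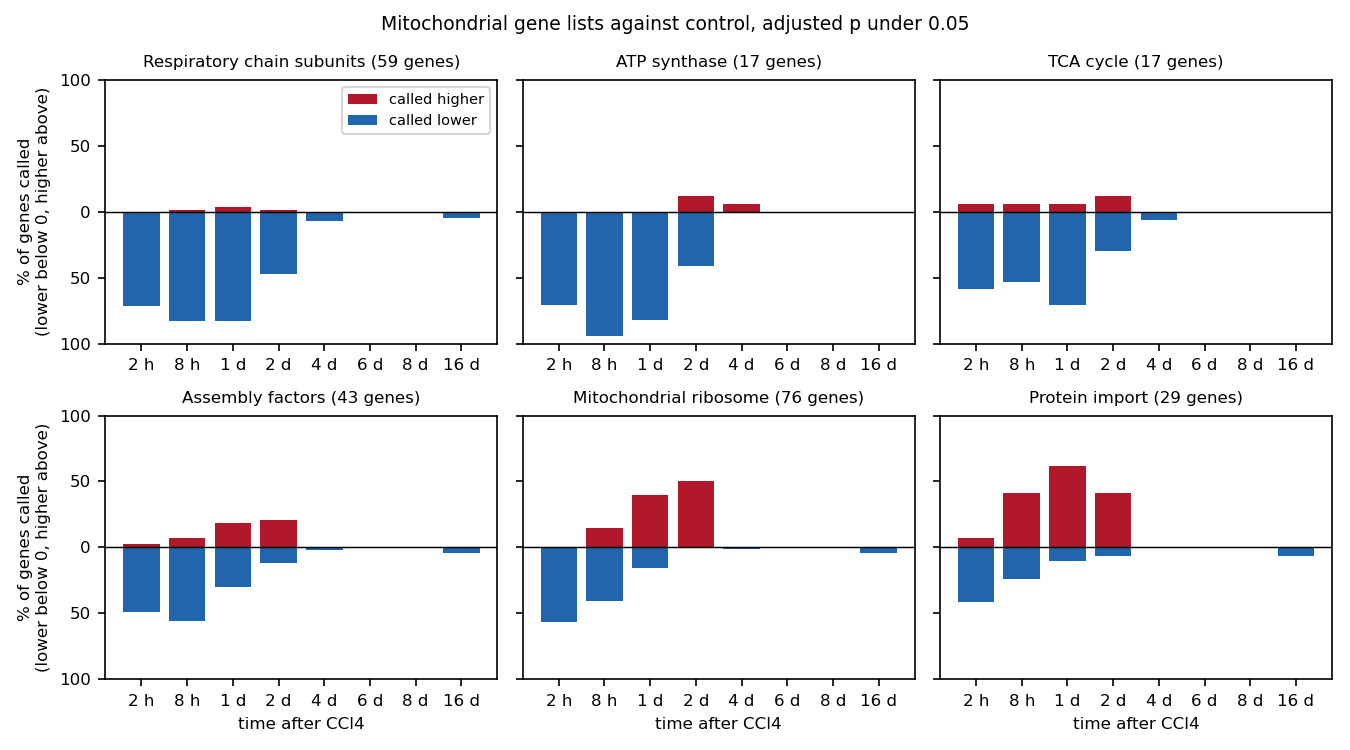
Share of genes called higher (red, above 0) and lower (blue, below 0) against control at each time for the respiratory chain subunits and 5 other mitochondrial gene lists, in percent of the genes tested. The upper panels are mostly blue from 2 h to 1 d. The ribosomal and import panels turn from blue at 2 h to mostly red at 1 d and 2 d with the values as deposited. After further quantile normalization the ribosomal genes had 23 calls each way at 1 d.

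Among the electron carriers and their partners, 8, 11 and 10 of 14 genes were lower at 2 h, 8 h and 1 d, and with cyclic loess 1 at 2 h. Coq8a and Coq9, which act in ubiquinone synthesis, stood at -1.18 and -0.87 at 8 h. Cyc1, the cytochrome c1 of complex III whose symbol the rule did not take, fell to -0.56 at 1 d (limma adjusted p = 2.07e-06). Cycs, cytochrome c itself, rose to 0.41 (adjusted p = 0.000366).

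Of 19 genes that regulate or transcribe mitochondrial genes 7 were lower and 1 higher at 2 h, and 4 lower and 7 higher at 8 h. Ppargc1b, a coactivator of respiratory genes, was at -1.18 ± 0.250 at 8 h (limma adjusted p = 0.000136) and -1.64 at 1 d, and Ppargc1a at -0.64 at 8 h. Gabpb1, a subunit of GABP, and Pprc1, a related coactivator, rose by 1.24 and 1.16 on the log2 scale at 8 h. The mean level of Gabpb1 was 4.90 in controls, below the median of all values (5.56), and 6.14 at 8 h. It may thus have been tested only because of its level at 8 h. Named for their role after their values were seen, Nrf1 rose by 0.62 at 8 h, and Tfam, the transcription factor of mitochondrial DNA, and Gabpa were at -0.48 and -0.53 at 2 h. These directions held under the 3 other scalings. Of 13 glycolysis enzymes 0 were lower and 8 higher at 2 d, among them Pkm (1.40) and Ldha (1.01); with quantile normalization 2 and with cyclic loess 1 were lower beside the same count higher.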

How the data were processed

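Liver RNA was measured on Affymetrix Mouse Genome 430 2.0 arrays from oligo-dT primed cDNA, per the labels' protocols. The authors deposited log2 expression values, for which the submitters' processing notes name RMA and oligo 1.52.0; the log base was taken from the range of the values, as the sources used here do not state it. RMA equalises probe intensities between arrays before it summarises probe sets, and further scaling of the deposited values still moved some results.

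Of 45101 probe sets 34945 named 1 gene. Of a gene's probe sets the brightest on average was read, and the 13239 genes that exceeded the overall median on 5 or more arrays were tested. All 46 arrays entered 1 limma fit (limma 3.58.1, R 4.3.3) of 9 group means with 37 residual degrees of freedom and eBayes; p-values were adjusted by Benjamini-Hochberg within a contrast over all genes tested, and called under 0.05. Changes are log2 differences, and ± gives their standard error unless an SD is named. The procedure was tested on simulated data.

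Members, lists and motifs were chosen with earlier results of these data known. Named are all Sdh and Uqcr genes, the largest called changes of complexes I and IV at each time, isoform pairs, the largest called genes of each other list and the largest at each step; others are said to be chosen after their values were seen. Alternatives were 3 array scalings, 2 filters, 2 probe set rules, array weights, another variance model, fits of only both groups, Ndufa4 in complex I, leaving out each array and a replicate block; a Gapdh covariate and the fit without 1 d replicates 1 and 2 were added after seeing the data. Promoters came from RefSeq (GRCm38.p6). Plots used Python 3.11.15, matplotlib 3.10.9 and pandas 2.3.3.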

Additional observations from a re-analysis of the deposited data

Results flagged for a closer look

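Among 162 sets of 4 to 10 arrays (13 members and the 5 member means, by group), 9 held an array far from the rest by Dixon's test, which chance gives in about 1 of 20. Sdha at 2 h replicate 2 was 11.08 where the other arrays were 10.86 to 10.90. Cox6b1 was 11.92 on control replicate 1 against 12.07 to 12.11. Ndufa4l2 was 6.473 on 4 d replicate 5 (others 6.817 to 6.913) and 7.099 on 16 d replicate 5 (others 6.744 to 6.856). Sdhc was 8.897 on 8 d replicate 4 against 8.693 to 8.747. The complex III mean was -0.2476 on 1 d replicate 2 (others -0.4119 to -0.369). The complex IV mean was 0.04094 on control replicate 4 (others -0.01856 to -0.003137) and 0.01177 on 6 d replicate 5 (others -0.04124 to -0.02653).

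Cox8b, the heart and muscle form of subunit VIII, was 6.93 on 16 d replicate 5 against 5.781 to 5.959 on the other arrays of that time. The mean of the skeletal and heart muscle markers was 7.94 on the same array and 6.489 to 6.726 on the other 5. The muscle forms Cox6a2 and Cox7a1 were also highest there among the 16 d arrays, at 6.475 and 5.858. Whether muscle RNA on this array had a part in these values was not tested.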

How the results depend on the processing

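Fold changes of members were recomputed under each alternative at the 8 times. Adding the replicate block changed 3 of 472 calls, all lost, and gave 40 members lower at 2 h and 2 at 16 d; 16 d replicate 6 then has its own level and adds nothing. Same-numbered arrays deviated together with a median r of 0.0093 and above 0.1 in 40 of 180 pairs, so the numbers were not taken to pair samples. The other variance model changed 2 calls, the stricter filter 1 (of 464) and no filter 9, with 0 directions turned. Under cyclic loess 43 calls were lost, 13 gained and 8 reversed; the cause was not tested. The reversed values at 2 h were Cox4i1 0.0247, Cox6c 0.0542, Ndufb11 0.00796, Uqcrb 0.026 and Uqcrq 0.0222, and at 8 h Cox4i1 0.0153, Cox5b 0.0144 and Cox6a1 0.0788. Through the choice of probe set, Uqcr10 at 1 d turned to 0.0537 (mean of all) and 0.26 (plain type first), and Uqcrq to 0.0542 at 8 h and 0.0363 at 2 d (plain type first).

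With cyclic loess 5 members were lower and 2 higher at 2 h, and 0 lower at 16 d. From 2 h to 8 h 32 were lower, from 8 h to 1 d 29, from 2 d to 4 d 33 higher, and from 4 d to 6 d 1 lower and 5 higher. The medians of complexes I, II, III and IV were -0.10, -0.0612, -0.0352 and 0.0587 at 2 h, -0.29, -0.36, -0.19 and -0.0662 at 8 h, -0.26, -0.35, -0.27 and -0.30 at 2 d, -0.0297, 0.0501, -0.0669 and 0.00348 at 16 d, and that of complex IV -0.24 at 1 d. Further quantile normalization gave 2 higher at 2 h, 7 lower at 4 d, 0 lower at 16 d, 31 lower from 2 h to 8 h, 11 lower and 2 higher from 8 h to 1 d, 30 higher from 2 d to 4 d, and 1 lower and 5 higher from 4 d to 6 d. Its medians were -0.19 (I) and -0.0839 (IV) at 2 h, -0.31 (IV) at 1 d, -0.25 (IV) at 2 d, and -0.0251 (I) and -0.0768 (III) at 16 d. With arrays shifted to the same median, 2 were higher at 2 d, 8 lower at 16 d, 7 lower from 2 h to 8 h, 2 lower from 8 h to 1 d, 4 lower from 2 d to 4 d and 0 higher from 4 d to 6 d, and complex IV had -0.14 at 1 d.

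Without the filter 0 were higher from 4 d to 6 d. With the mean of all probe sets 1 was higher at 2 h, 0 higher at 8 h, 1 lower at 16 d and 2 lower from 2 d to 4 d, and complex II had -0.39 at 8 h and -0.51 at 1 d. With plain probe sets first 13 were lower from 2 h to 8 h, 3 from 8 h to 1 d, 0 from 2 d to 4 d and 0 from 4 d to 6 d, and complex III had -0.24 at 8 h and -0.25 at 1 d. With array weights 1 was higher at 1 d and 2 at 2 d, 7 lower at 4 d, 1 lower at 8 d, 17 lower and 1 higher at 16 d, 6 lower from 2 d to 4 d and 3 higher from 4 d to 6 d, and complex IV had -0.24 at 1 d. With only both groups in the fit 1 was higher at 1 d, 11 lower from 2 h to 8 h, 2 lower and 2 higher from 8 h to 1 d, 12 higher from 1 d to 2 d, 0 lower and 10 higher from 2 d to 4 d, and 2 higher from 4 d to 6 d. The Gapdh covariate gave 0 higher at 8 h and 2 d, 2 lower at 4 d, 5 lower at 16 d and -0.0878 for complex IV at 4 d. Without 1 d replicates 1 and 2, 1 was higher at 1 d and complex IV had -0.24.

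Leaving out 1 array at a time gave 30 to 42 members lower at 2 h, 46 to 50 at 8 h, 43 to 49 at 1 d, 21 to 30 at 2 d, 2 to 4 at 4 d and 0 to 4 at 16 d. Higher were 0 to 1 at 8 h, 1 to 2 at 1 d and 1 to 2 at 2 d. For the steps, lower were 8 to 22 from 2 h to 8 h, 2 to 8 from 8 h to 1 d, 1 to 6 from 2 d to 4 d and 0 to 2 from 4 d to 6 d, and higher 21 to 35 from 1 d to 2 d, 12 to 28 from 2 d to 4 d and 0 to 1 from 4 d to 6 d. The median of complex I at 2 d ranged from -0.22 to -0.0559 and that of complex IV from -0.24 to -0.15.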
